A study of Mus musculus with 15 samples.

Results

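The genes described here encode the ephrin, Slit and netrin systems of axon guidance, as counted in mouse trigeminal ganglia (TG). All protein-coding genes in the table named as ephrins (Efna, Efnb), Eph receptors (Epha, Ephb), Slits, Robos, netrins, netrin-Gs, or the netrin receptors Dcc, Neo1 and Unc5 were taken, which gave 41 of 55573 genes. Of these, 32 had a mean of 10 or more read counts over the 15 samples and are reported. The rule used the names and this minimum, and no comparison between groups.

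The TG holds the cell bodies of the sensory neurons that supply the cornea. The samples came from 10-week-old male CD1 mice, and all of them, vehicle included, had the epithelium and anterior stroma of the central right cornea scraped off. The injured eye then received vehicle, RvD6 (a docosanoid lipid mediator, labelled as the standard) or RvD6si (its stereoisomer) 3 times a day for 12 days, and the right TG was taken, with 5 TG in each group. The labels give no concentration for either lipid, and no uninjured ganglion was analysed here. The labels name no animals, but only the right TG was taken, so the TG of a group came from separate mice. The p-values measure the spread between these samples, in which the parts of animal and technical variation were not separated.

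Ephrins are ligands fixed to the cell membrane, and their Eph receptors are receptor tyrosine kinases, so that this pair acts where cells touch. Slits are secreted proteins that repel or branch axons through Robo receptors. Netrin-1 is secreted and attracts axons through Dcc or repels them through Unc5 receptors, while the netrin-Gs are anchored in the membrane of axons, do not use these receptors, and bind partner proteins of the netrin-G ligand family at contacts between neurons.

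Ntng2, which encodes netrin-G2, was the only one of the 32 genes to pass the adjusted threshold in any of the 3 comparisons by the quasi-likelihood test of edgeR. It was 2.73-fold higher in RvD6si than in vehicle. The promoter sequences of Ntng2, of its closest relative Ntng1, and of Epha5 and Epha7, the other genes with a pair of groups that did not overlap, are shown here because the values below turn on these genes. Each run is the 250 bases before a RefSeq transcript start (GRCm38.p6), 5′ to 3′ on the strand of the gene, and capitals mark the GC box GGGCGG or its reverse complement CCGCCC.
Ntng2: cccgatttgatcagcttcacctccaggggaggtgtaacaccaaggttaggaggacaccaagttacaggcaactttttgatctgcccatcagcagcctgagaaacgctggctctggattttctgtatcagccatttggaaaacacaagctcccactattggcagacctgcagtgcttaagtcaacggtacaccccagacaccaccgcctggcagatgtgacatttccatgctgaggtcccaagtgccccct
Ntng1: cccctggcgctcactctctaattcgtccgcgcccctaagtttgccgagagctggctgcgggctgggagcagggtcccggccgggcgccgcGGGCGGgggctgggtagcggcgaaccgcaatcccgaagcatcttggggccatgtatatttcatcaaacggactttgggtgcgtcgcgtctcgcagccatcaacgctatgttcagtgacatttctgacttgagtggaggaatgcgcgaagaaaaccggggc
Epha5: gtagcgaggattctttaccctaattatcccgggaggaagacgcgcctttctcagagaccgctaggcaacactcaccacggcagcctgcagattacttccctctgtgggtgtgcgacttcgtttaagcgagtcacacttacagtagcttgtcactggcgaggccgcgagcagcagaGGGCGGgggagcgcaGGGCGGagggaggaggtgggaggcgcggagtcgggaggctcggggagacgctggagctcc
Epha7: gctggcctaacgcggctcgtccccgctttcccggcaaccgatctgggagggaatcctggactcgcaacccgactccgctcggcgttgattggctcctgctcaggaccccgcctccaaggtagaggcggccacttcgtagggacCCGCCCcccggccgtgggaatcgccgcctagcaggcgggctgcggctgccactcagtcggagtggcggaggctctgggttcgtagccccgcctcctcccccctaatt
These windows lie at chr2:29248100-29248349 on the minus strand for Ntng2, at chr3:110143473-110143722 on the minus strand for Ntng1, at chr5:84417383-84417632 on the minus strand for Epha5 and at chr4:28812881-28813130 on the plus strand for Epha7. The Ntng2 window held no GC box and 4 CpG dinucleotides, against 1 GC box and 25 CpG for Ntng1, 2 and 20 for Epha5, and 1 and 25 for Epha7. The RefSeq starts used for Ntng2 and Ntng1 lie inside their GENCODE genes, which begin further upstream, so each of these windows is that of 1 of the annotated starts. Promoter windows were taken for 28 of the 32 genes, with 32 starts in all. Among them is a second Epha7 window, at chr4:28812895-28813144, that overlaps the one shown. A GC box on either strand was present in 20 of these 32 windows, and in 33.0% of 32536 windows of the same length over all genes. The median GC content was 64.6% in the windows of the 32 starts and 52.4% over all windows. The other motifs searched on both strands were the E box CACGTG, the cAMP response element TGACGTCA and the TATA box TATAAA, which were found in 1, 1 and 2 of the 32 windows and in 6.04%, 1.56% and 12.3% of all windows.

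The tissue label was checked against marker genes. All 12 sensory neuron markers were counted, and their summed level, in counts scaled to the library size (CPM), was 10531 to 11874 CPM in vehicle, 6147 to 10448 in RvD6 and 9135 to 11787 in RvD6si. The RvD6 samples lay below all vehicle samples on this sum, and both lipid groups lay below vehicle on the sum of 6 satellite glia markers (6697 to 8072 CPM in vehicle, 4881 to 6577 in RvD6 and 4468 to 6488 in RvD6si). Of these 6 markers, 1 was higher and 2 were lower in RvD6si than in vehicle at an unadjusted p below 0.05 in edgeR. Over all genes tested these shares were 8.69% and 7.3%. In RvD6 against vehicle, 0 were higher and 1 was lower, against 7.63% and 5.99% of all genes. The median log2 fold changes of the 6 were -0.01 in RvD6si and -0.09 in RvD6. Markers of several other cell types moved with the RvD6 group. The 7 skeletal muscle markers summed to 77.5 to 2267 CPM in RvD6, against 16.9 to 143 in vehicle and 8.61 to 28.3 in RvD6si, and the 6 granulocyte precursor markers to 346 to 1100.0 in RvD6 against 50.3 to 306 in vehicle. RvD6si replicate 15 reached 941 CPM on the latter list, while the other 4 RvD6si samples lay at or below 63.6. The 3 erythroid markers summed to 1542 to 3209 CPM in vehicle, 3741 to 6728 in RvD6 and 618 to 7155 in RvD6si. The 7155 was again RvD6si replicate 15, and the other 4 RvD6si samples lay between 618 and 1710. In RvD6 against vehicle, 3 of 6 fibroblast markers and 3 of 7 macrophage markers were also higher at an unadjusted p below 0.05 in edgeR, against 7.63% of all genes. Their median log2 fold changes were 0.79 and 0.47 over each list. Of the 12 sensory neuron markers, 5 were lower and 0 higher at that level, against 5.99% lower over all genes, with a median log2 fold change of -0.30. Fibroblast sums were 1370.3 to 1671 CPM in vehicle and 1379 to 2262 in RvD6, macrophage sums 50.9 to 101 and 56.5 to 113, so both overlapped. The pituitary markers, of which Lhb was at 0 throughout, summed to 9.97 to 3745 CPM in vehicle, with the highest value in replicate 3, 226 to 2299 in RvD6 and 19.9 to 657 in RvD6si. The part of these differences in the values below was not tested. In a bulk sample, fewer cells of a type and less RNA per cell cannot be told apart. Between 4125962 and 9903396 reads were counted per sample, with a median of 9147139 in vehicle, 7235362 in RvD6 and 6862705 in RvD6si.

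**Figure D1:**
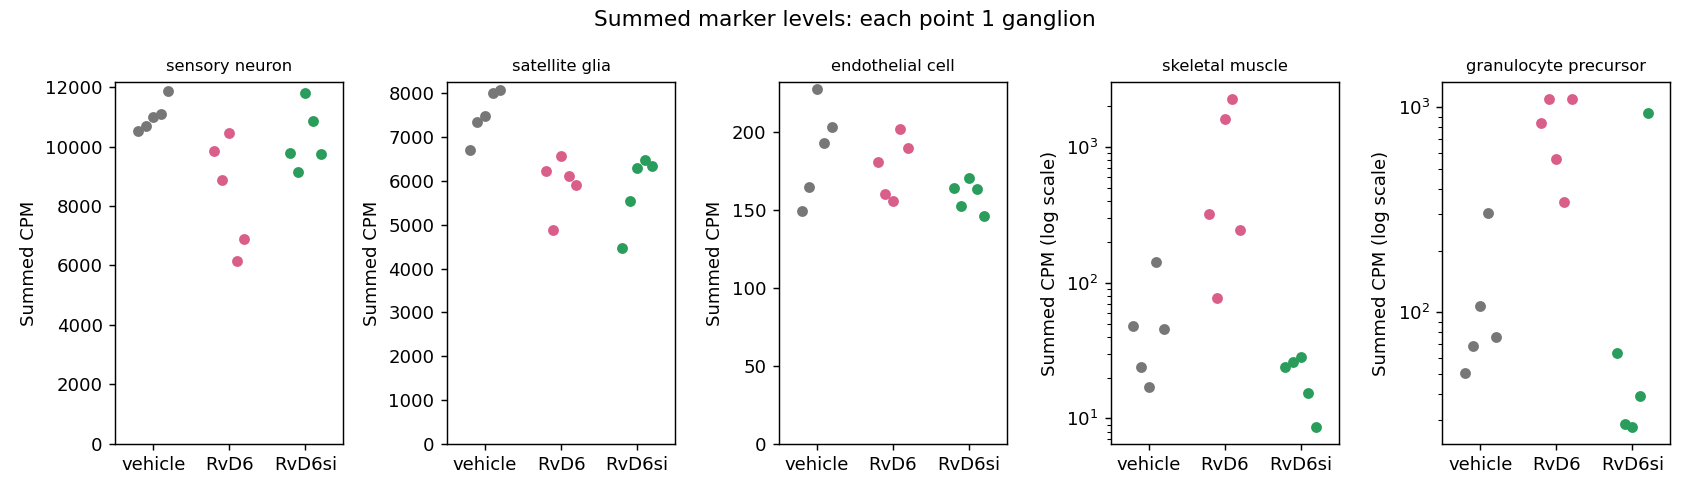
Summed levels of marker genes in CPM, with 1 point for each TG in the vehicle, RvD6 and RvD6si groups; the axes for skeletal muscle and granulocyte precursors are logarithmic. The lowest sample on sensory neuron markers is an RvD6 sample, at 6147 CPM, and so is the highest on skeletal muscle markers, at 2267 CPM. Other RvD6 samples overlap with the RvD6si samples on sensory neuron markers. On skeletal muscle markers RvD6 replicate 7, at 77.5 CPM, lies within the vehicle range and the other RvD6 samples lie above it.

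Levels per exon length, as CPM per kilobase of exon (RPKM), were compared first in the vehicle group. Efna1, which encodes the membrane-anchored ligand ephrin-A1, had the highest level at 23.8 ± 5.26 RPKM (SD, n = 5). Ephb6, an Eph receptor without kinase activity, followed at 13.7 ± 3.19 RPKM, and Ntng1, which encodes netrin-G1, at 4.55 ± 1.72. These first places were separated by more than the larger SD of the neighbours, from Efna1 to Ephb6 and from Ephb6 to Ntng1, while the other 29 of the 31 gaps between neighbours in the order were within it.

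Below Ntng1 came Slit1 (3.67 ± 2.14 RPKM), Robo2 (3.40 ± 0.819), Neo1 (2.94 ± 0.746), Ntn5 (2.75 ± 0.846) and Ntng2 (2.54 ± 0.567). The lowest levels were those of Epha3 at 0.185 ± 0.161, Ephb2 at 0.129 ± 0.141 and Dcc at 0.0586 ± 0.0663 RPKM. The median of the 32 genes was 1.06 RPKM, against a median of 4.05 RPKM over all 16567 genes tested. Relative to these genes, Efna1 stood at percentile 85.0 and Dcc at percentile 0.278.

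**Figure D2:**
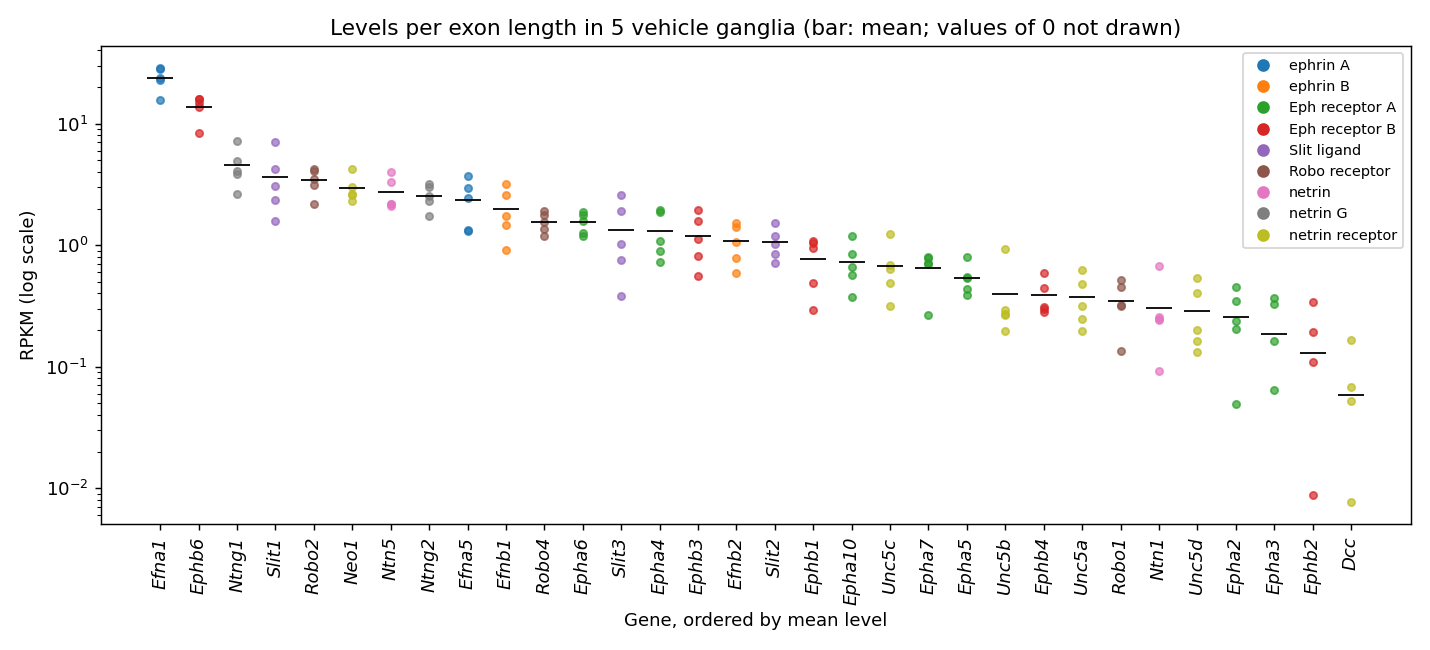
Levels of the 32 guidance genes in the 5 vehicle TG, in RPKM on a log axis, ordered by mean and coloured by family; points are single TG, bars are means, and values of 0 are not drawn. Efna1 at 23.8 RPKM and Ephb6 at 13.7 stand apart, and the rest run down to Dcc at 0.0586 with overlapping points.

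The spread between vehicle samples differed widely among these genes. The coefficient of variation of the normalized counts (scaled with DESeq2 size factors) was lowest for Robo4 at 18.8%, was 22.2% for Ntng2, and reached 109% for Ephb2 and 113% for Dcc. Of the 9 genes under the minimum, the highest count in any sample was 46 for Ntn3, 35 for Ntn4, 26 for Efnb3, 21 for Efna2 and Efna4, 16 for Epha8, 5 for Epha1, 2 for Robo3 and 1 for Efna3. Ephb2 was just inside the minimum with a mean of 10.0 counts, and Ntn3 just outside with 8.67. The low-count filter of edgeR kept all 32 and also Ntn3 and Ntn4, so that 34 of the 41 genes were tested, and Ntn3 had a log2 fold change of 2.47 (SE 0.95, adjusted p = 0.277) for RvD6 against vehicle in edgeR. In normalized counts of Ntn3, RvD6 replicate 7 had 41.5 and the other RvD6 samples 2.01 to 9.81, against 0 to 7.93 in vehicle. Ntn3 also shares exon bases with Tbc1d24 on the same strand.

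Of the netrin-G pair, Ntng2 passed the test in RvD6si against vehicle and Ntng1 did not. Ntng2 (ENSMUSG00000035513.19, chr2:29194541-29253005 on the minus strand of GRCm38) had 90.1, 72.1, 49.7, 65.9 and 85.5 normalized counts in vehicle replicates 1 to 5. It had 114, 148, 113, 130.1 and 84.6 in RvD6 replicates 6 to 10, and 273, 152, 161, 188 and 226 in RvD6si replicates 11 to 15. All RvD6si samples lay above all vehicle samples and above all RvD6 samples, while RvD6 replicate 10 lay within the vehicle range. RvD6si exceeded vehicle by a log2 fold change of 1.45 (SE 0.24, adjusted p = 0.0164) in the quasi-likelihood test of edgeR with Benjamini-Hochberg adjustment over 16567 genes. By that rule 0.67% of all genes tested were called in this comparison, and 0.525% were called higher in RvD6si.

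RvD6 against vehicle gave a log2 fold change of 0.68 (SE 0.23, adjusted p = 0.223), and RvD6si against RvD6 gave a log2 fold change of 0.77 (SE 0.23, adjusted p = 0.273). Neither difference passed the adjusted threshold of edgeR. On the scale of levels per exon length the means were 2.54 ± 0.567 RPKM in vehicle, 4.08 ± 0.784 in RvD6 and 6.96 ± 1.72 in RvD6si (SD, n = 5 each). The call against vehicle was lost when vehicle replicate 3 (log2 fold change 1.35, adjusted p = 0.0583), vehicle replicate 4 (1.42, adjusted p = 0.0506) or RvD6si replicate 11 (1.32, adjusted p = 0.0698) was left out of the edgeR fit, and was kept in the other 12 fits with 1 sample less. Without RvD6 replicates 8 and 9 and RvD6si replicate 15, which had the highest skeletal muscle and, within RvD6si, granulocyte precursor sums, it was kept with a log2 fold change of 1.41 (edgeR adjusted p = 0.0285).

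An annotated transcript on the same strand, 6530402F18Rik, shares exon bases with Ntng2, and reads on shared bases were counted for neither gene. It had 16.7 to 49.0 normalized counts in vehicle and 19.97 to 53.6 in RvD6si, with a log2 fold change of 0.55 (SE 0.40, edgeR adjusted p = 0.535).

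Ntng1, the relative of Ntng2, had 428, 293, 228, 239 and 157 normalized counts in vehicle and 391, 261, 246, 255 and 309 in RvD6si, so that every RvD6si sample lay within the vehicle range. RvD6 samples lay between 201 and 419. The log2 fold change of Ntng1 was 0.11 for RvD6si against vehicle, with a 95% interval from -0.40 to 0.62, against an interval from 0.95 to 1.95 for Ntng2. The ratio of Ntng2 to Ntng1 in RPKM within a sample was 0.435 to 1.12 in vehicle, 0.657 to 0.868 in RvD6 and 1.20 to 1.53 in RvD6si, as a description without a test. The RvD6si ratios lay above all others, with the highest vehicle ratio close below the lowest of RvD6si. The partners of the netrin-Gs did not pass the test, with log2 fold changes for RvD6si against vehicle of 0.34 (SE 0.32) for Lrrc4, which binds netrin-G2, and 0.56 (SE 0.53) for Lrrc4c, which binds netrin-G1.

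**Figure D3:**
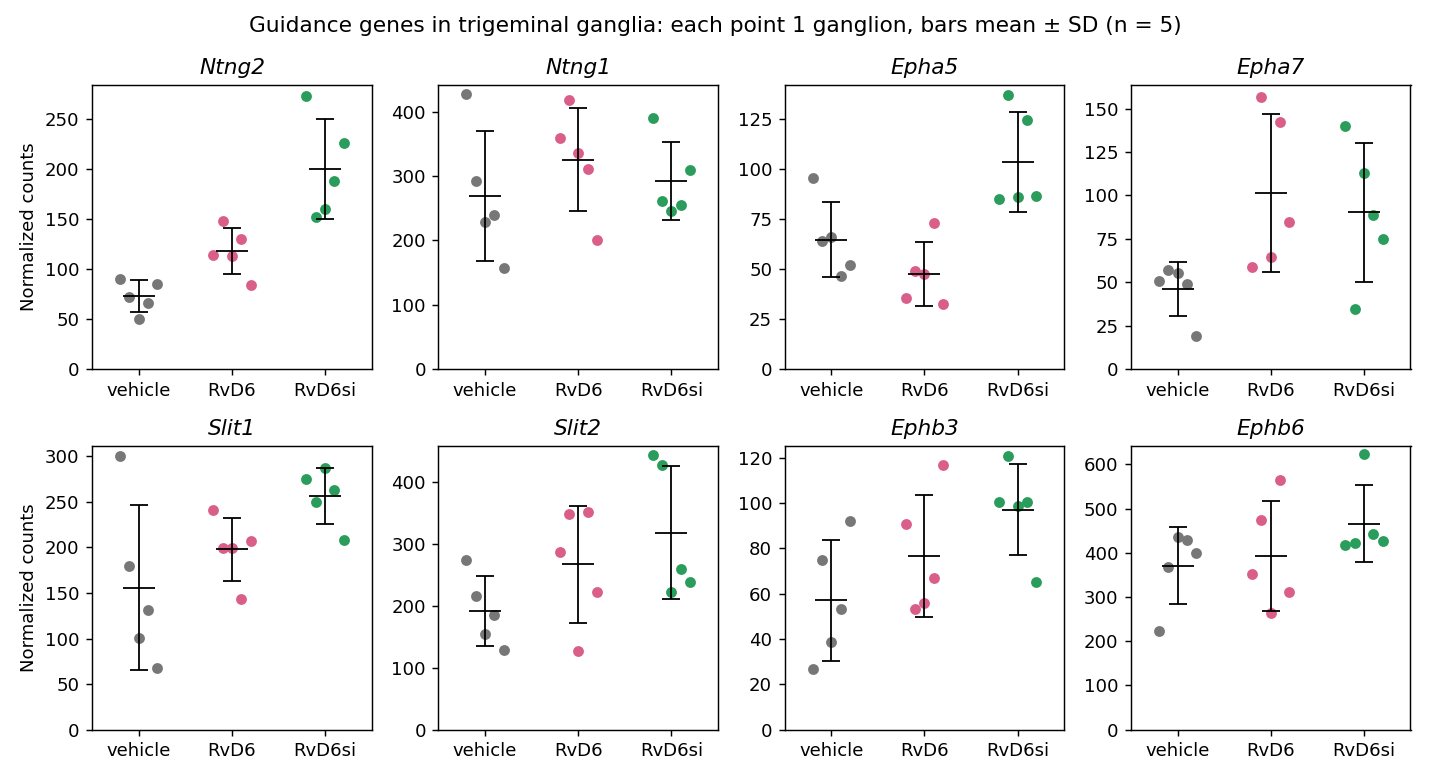
Normalized counts of 8 guidance genes, with 1 point for each TG and bars for the mean and SD of 5. For Ntng2 the RvD6si points, from 152 upward, sit above all others, while the points of Ntng1 and of Ephb6 overlap between groups.

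The ephrin ligands did not pass the test in any comparison by edgeR, and none of the 4 reached an unadjusted p of 0.05. Efna1 had 205 to 378 normalized counts in vehicle, 87.4 to 360.4 in RvD6 and 207 to 324 in RvD6si, and its low end in RvD6 was the single sample of replicate 7. For RvD6si against vehicle its log2 fold change was -0.13 with a 95% interval from -0.74 to 0.47. The largest differences from vehicle among the ligands were those of Efnb1, with log2 fold changes of 0.81 (SE 0.46) in RvD6si and 0.68 (SE 0.46) in RvD6. Efna5, a ligand that repels axons in topographic maps, stood at 0.69 (SE 0.39) in RvD6si and 0.21 (SE 0.39) in RvD6. Efnb2, which also acts in vessels, stood at -0.11 (SE 0.39) and 0.06 (SE 0.38).

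Among the 7 EphA receptors, Epha7 and Epha5 had differences past an unadjusted p of 0.05, in different patterns. Epha7, a receptor of A ephrins, had 50.5, 56.9, 55.4, 49.2 and 18.9 normalized counts in vehicle. It had 58.6, 157, 64.4, 143 and 84.6 in RvD6 and 140.0, 34.3, 113, 89.0 and 74.8 in RvD6si. All 5 RvD6 samples lay above all vehicle samples, the lowest of them by a small margin, and 4 of 5 RvD6si samples did, with RvD6si replicate 12 inside the vehicle range. RvD6 against vehicle gave a log2 fold change of 1.12 (SE 0.39, adjusted p = 0.228) and RvD6si against vehicle gave a log2 fold change of 0.96 (SE 0.39, adjusted p = 0.233) in the edgeR test. The 2 lipid groups differed by -0.16 on the log2 scale, with a 95% interval from -0.97 to 0.66. After the trend of each sample on gene length was removed, the RvD6 and vehicle samples of Epha7 overlapped.

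Epha5, a receptor of A ephrins that is common on growing axons, had 35.2, 48.7, 47.6, 73.1 and 32.2 normalized counts in RvD6 and 84.7, 137, 85.8, 124 and 86.2 in RvD6si. In vehicle it had 95.2, 64.1, 65.8, 46.2 and 51.8. All RvD6si samples lay above all RvD6 samples, and vehicle replicate 1 lay within the RvD6si range. RvD6si against RvD6 gave a log2 fold change of 1.14 (SE 0.29, adjusted p = 0.172) in edgeR, where 0.235% of all genes were called in this comparison. The same difference passed in DESeq2 (adjusted p = 0.0216 with all samples and 0.0290 with the 2 groups alone), which called 0.936% of the genes it tested. Against vehicle, Epha5 stood at 0.67 in RvD6si (SE 0.29, edgeR adjusted p = 0.258) and at -0.47 in RvD6 (SE 0.29, edgeR adjusted p = 0.508). Neither difference from vehicle passed the adjusted threshold.

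The other EphA receptors did not reach an unadjusted p of 0.05 in any comparison. Epha4, a receptor of both classes of ephrin, had a log2 fold change of 0.84 (SE 0.43) in RvD6 and 0.20 (SE 0.43) in RvD6si against vehicle. Epha6 stood at 0.00 in RvD6si with a 95% interval from -0.87 to 0.87. Epha2, Epha3 and Epha10, the last a receptor without kinase activity, had SEs of 0.84, 0.96 and 0.79 for RvD6si against vehicle, so that differences of 2-fold were not detectable for them. The RvD6si samples of Epha10 ran from 0 to 80 counts.

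Of the 5 EphB receptors, which bind the transmembrane B ephrins, Ephb3 had a difference past an unadjusted p of 0.05. It had 26.7, 74.7, 38.5, 53.1 and 92.1 normalized counts in vehicle. In RvD6si it had 101, 121, 98.6, 100.4 and 65.0, and in RvD6 90.7, 53.2, 56.0, 66.9 and 117. Of the RvD6si samples, 4 lay above all vehicle samples, and replicate 15 lay within their range. RvD6si against vehicle gave a log2 fold change of 0.77 (SE 0.33, adjusted p = 0.267) in edgeR. Ephb1 stood at 0.86 (SE 0.48), Ephb4 at 0.60 (SE 0.55) and Ephb2 at -0.44 (SE 1.06) in the same comparison. For Ephb6, the most abundant receptor of the set, the log2 fold change was 0.33 in RvD6si, with an interval from -0.13 to 0.79, and 0.07 in RvD6, from -0.39 to 0.53.

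Slit1 and Slit2, secreted ligands of the Robo receptors, were higher in RvD6si than in vehicle at an unadjusted p below 0.05, and neither passed the adjusted threshold. Slit2, which is known to branch sensory axons, had 275, 216, 154, 185 and 129 normalized counts in vehicle. It had 287, 348, 127, 351 and 221 in RvD6 and 443, 427, 223, 259 and 239 in RvD6si. Of the RvD6si samples, replicates 11 and 12 lay above all vehicle samples and the other 3 within their range. The difference was a log2 fold change of 0.72 (SE 0.28, adjusted p = 0.210) in edgeR.

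Slit1 had 299.9, 179.7, 100.3, 131 and 67.4 normalized counts in vehicle. It had 241, 199, 199, 144 and 207 in RvD6 and 276, 250.01, 288, 263 and 208 in RvD6si. The RvD6si samples lay close together above 4 of the 5 vehicle samples, and vehicle replicate 1 lay above them all. The difference from vehicle was a log2 fold change of 0.72 (SE 0.30, adjusted p = 0.237) in edgeR, and it ran from 0.53 to 1.10 on the log2 scale with 1 sample left out at a time. For RvD6 against vehicle, Slit1 stood at 0.33 (SE 0.30) and Slit2 at 0.46 (SE 0.28). Slit3 stood at 0.08 (SE 0.44) in RvD6si and 0.83 (SE 0.44) in RvD6. The 3 Slits summed to 6.06 ± 2.85 RPKM in vehicle, 8.44 ± 1.26 in RvD6 and 9.17 ± 1.12 in RvD6si (SD, n = 5 each).

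The Robo receptors did not reach an unadjusted p of 0.05 in any comparison. Robo2, the most abundant of them, had 264 to 509.7 normalized counts in vehicle, 441 to 774 in RvD6 and 382 to 573 in RvD6si. Its log2 fold change against vehicle was 0.18 in RvD6si, with a 95% interval from -0.23 to 0.59, the narrowest interval among the 32 genes. Robo1 stood at 0.60 (SE 0.40) and Robo4, a receptor of endothelial cells, at 0.39 (SE 0.36). The endothelial markers summed to 149 to 228 CPM in vehicle and 146 to 170.2 in RvD6si.

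Of the reported genes, the secreted netrins Ntn1 and Ntn5 and the 6 netrin receptors did not reach an unadjusted p of 0.05 in any comparison, while Ntn3, under the minimum of 10, was past it in RvD6 against vehicle only. Ntn1, the attractant and repellent netrin-1, had only 4.11 to 30.3 normalized counts in vehicle, and Ntn5 had 33.7 to 63.3. Their log2 fold changes for RvD6si against vehicle were 0.53 (SE 0.64) and -0.48 (SE 0.41). Among the receptors, Neo1, which also binds repulsive guidance molecules, stood at 0.19 (SE 0.26) and Unc5c, a receptor of repulsion, at -0.06 (SE 0.37). Unc5a, Unc5b and Unc5d, its relatives, stood at 0.16 (SE 0.74), 0.20 (SE 0.72) and -1.05 (SE 0.92). Dcc, the main receptor of attraction, was counted at 0 to 15.6 normalized counts in vehicle and 2.74 to 32.7 in RvD6si, and its log2 fold change of 1.64 had an SE of 1.04.

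Over the 32 genes, edgeR called 1 in RvD6si against vehicle, 0 in RvD6 against vehicle and 0 in RvD6si against RvD6, and DESeq2 called 1, 0 and 1. Over all 16567 genes tested, edgeR called 0.67%, 0.0% and 0.235% (0.0121% higher and 0.223% lower in the last). In the same order, DESeq2 called 8.13% of 11321 genes (4.82% higher and 3.3% lower) and 1.92% of 19190 (1.44% higher and 0.479% lower). In the last comparison it called 0.936% of 19769 (0.258% higher and 0.678% lower). These are the genes to which DESeq2 gave an adjusted p, and their number differs between comparisons. At an unadjusted p below 0.05, 6 of the 32 were higher in RvD6si than in vehicle, namely Ntng2, Slit2, Epha7, Slit1, Epha5 and Ephb3, and none was lower, against 8.69% higher and 7.3% lower over all genes. The count of 6 fell to 3 without vehicle replicate 4, vehicle replicate 5, RvD6si replicate 11 or RvD6si replicate 12. In RvD6 against vehicle, Ntng2 and Epha7 were higher at that level and none was lower, against 7.63% and 5.99% over all genes, and the count of 2 rose to 6 without vehicle replicate 1 and to 4 without vehicle replicate 2 or RvD6 replicate 8. In RvD6si against RvD6, Ntng2 and Epha5 were higher and none was lower, against 4.18% and 4.64%, and the count of 2 rose to 4 without RvD6si replicate 12. The shares over all genes are those of the fit with all 15 samples and were not taken again with 1 sample left out.

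Groups that did not overlap were found for Ntng2 alone in RvD6si against vehicle (2.45% of all genes did not overlap with higher values and 2.46% with lower ones), for Epha7 alone in RvD6 against vehicle (2.15% and 1.62%), and for Ntng2 and Epha5 in RvD6si against RvD6 (0.712% and 1.1%). All of these were in the direction of higher values in the first group. The count for RvD6si against vehicle rose to 4 without vehicle replicate 1 and to 2 without RvD6si replicate 12 or 15, and that for RvD6 against vehicle rose to 4 without RvD6 replicate 8 and to 2 without vehicle replicate 2, RvD6 replicate 9 or RvD6 replicate 10. Groups with fewer samples part more easily for any gene, and no share over all genes was taken for the fits with 1 sample left out. The comparisons with vehicle share the same 5 vehicle samples.

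**Figure D4:**
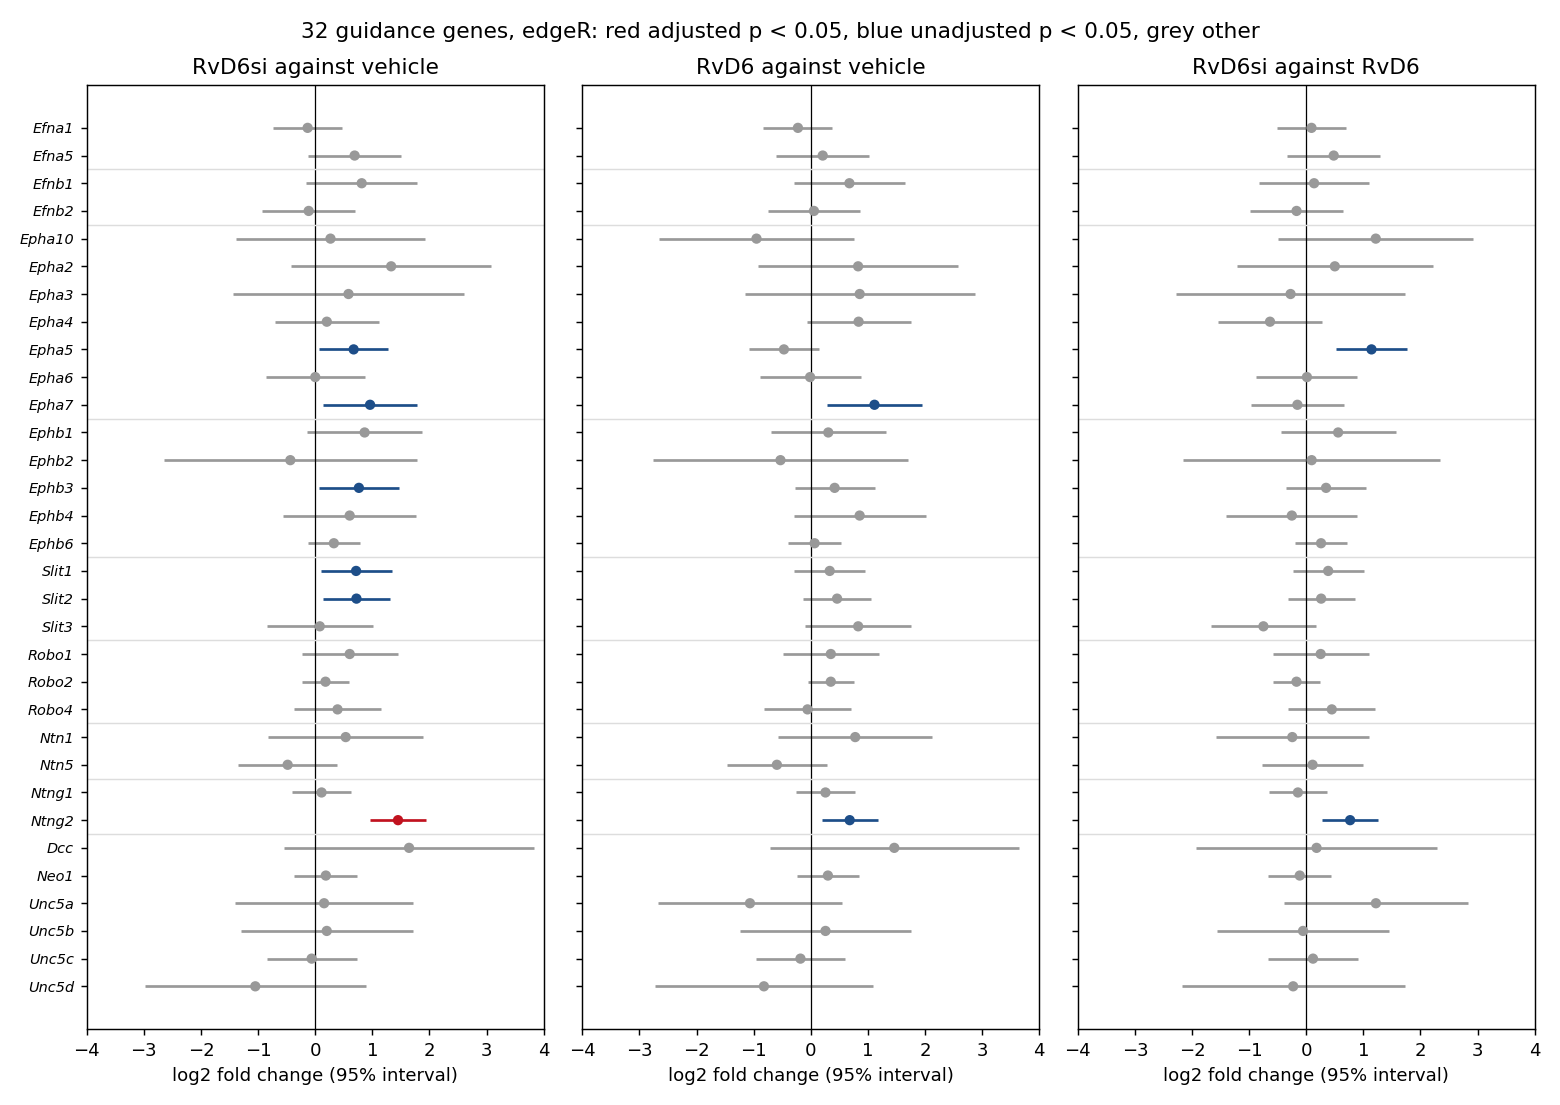
Log2 fold changes of the 32 guidance genes with 95% intervals from edgeR, in 3 comparisons, grouped by family from ephrins at the top to netrin receptors at the bottom. Ntng2 in RvD6si against vehicle, at 1.45, is the one red point past the adjusted threshold, and blue points passed an unadjusted p of 0.05 only.

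The log2 fold changes of RvD6si against vehicle were above 0 for 26 of the 32 genes, against 51.2% of all genes tested, and their median was 0.36 against 0.02. For RvD6 against vehicle, 22 of 32 were above 0 with a median of 0.30 against 0.02, and for RvD6si against RvD6, 20 of 32 with a median of 0.11 against -0.00. Exon length moved with this shift. The 32 genes have a median exonic length of 6748 bases, against 3968 over all genes tested. Across genes, the log2 fold change correlated with exonic length at a Spearman rho of 0.290 for RvD6si against vehicle and 0.246 for RvD6 against vehicle (16567 genes from the same libraries, given as a description). Genes at least as long as the median of the 32 had a median log2 fold change of 0.16 in RvD6si and 0.17 in RvD6, and shorter genes -0.04 and -0.03. With the length trend of each sample removed, the medians of the 32 genes were 0.27 for RvD6si against vehicle and 0.16 for RvD6 against vehicle, with 24 and 21 genes above 0, and Ntng2 kept its call at 1.37 (edgeR adjusted p = 0.0211).

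**Figure D5:**
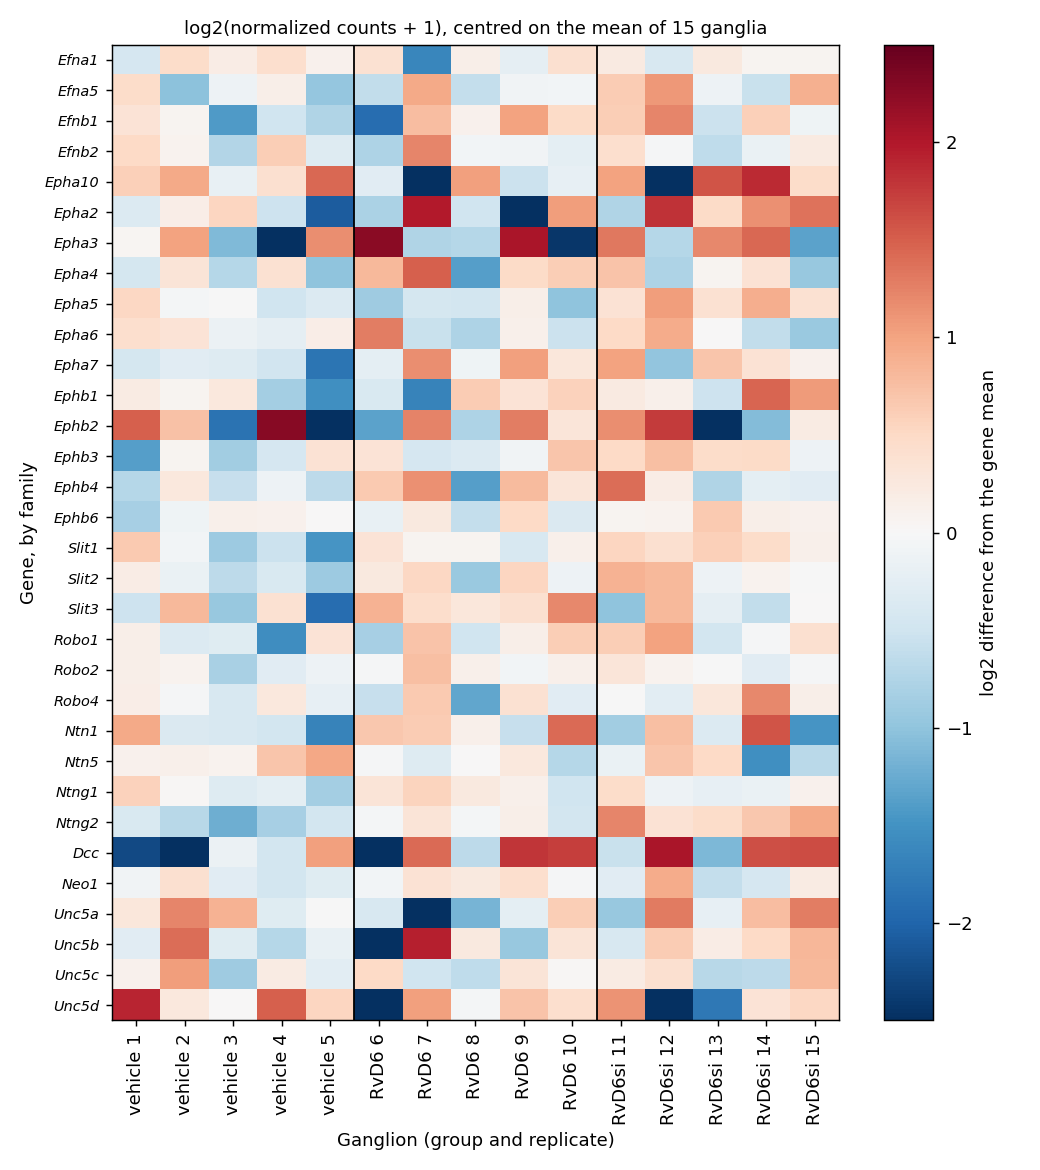
Values of the 32 guidance genes in the 15 TG as log2(normalized counts + 1), each centred on its mean over all TG, with red above and blue below the mean; black lines part the vehicle, RvD6 and RvD6si groups. Ntng2 is below its mean in all 5 vehicle TG and above it in all 5 RvD6si TG, while the strongest colours lie in scarce genes such as Epha10, Epha2 and Epha3.

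The samples of 1 group did not move as a block over these genes. RvD6 replicate 7 had the highest RvD6 value of Robo2 (774 normalized counts), Efna5 (149) and Efnb2 (115), and the lowest of Efna1 (87.4). Vehicle replicate 5 had the lowest vehicle value of Slit1 (67.4), Slit2 (129), Slit3 (16.4), Ntng1 (157) and Epha7 (18.9), but not of Ntng2.

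The comparison of RvD6si with RvD6 at the same schedule covers the same 32 genes. Neither Ntng2 nor Epha5 passed its adjusted threshold in edgeR, and Epha5 passed in DESeq2. For the other 30 genes the 95% intervals of the difference held 0. Over all 32 their half-widths had a median of 0.86 on the log2 scale and ran from 0.41 to 2.24. Differences of less than these sizes were not detectable. Larger ones could also fail the adjusted threshold of edgeR, as those of Ntng2 and Epha5 did with intervals that excluded 0. The lipids were therefore not shown to act alike on these genes.

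Genes that act with these ligands and receptors were taken as 3 lists. Of 18 Eph and ephrin signalling genes tested, edgeR called 0 in each comparison, and 3 were higher in RvD6si than in vehicle at an unadjusted p below 0.05, Abl2, Adam10 and Vav2, against 8.69% of all genes. Adam10, a protease that cuts ephrins, stood at 0.46 (SE 0.18) in RvD6si and 0.60 (SE 0.18) in RvD6 against vehicle. Abl2, a kinase of the cytoskeleton, stood at 0.84 (SE 0.32), and Vav2, which acts in Eph endocytosis, at 0.69 (SE 0.29). In RvD6 against vehicle Adam10 was the 1 gene higher at that level and Arhgef16 the 1 lower, at -1.56 (SE 0.70), against 7.63% and 5.99% of all genes. The next smallest p was that of Abl2 at 0.62 (SE 0.32). In RvD6si against RvD6, Vav2 was the 1 gene higher at that level, at 0.80 (SE 0.29), against 4.18% of all genes. Vav3 at -0.56 (SE 0.31) and Sdcbp at 0.28 (SE 0.18) followed. The median log2 fold change of the list was 0.15 for RvD6si against vehicle.

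Of 19 Slit and Robo signalling genes, edgeR called 0 in each comparison, and 3 were higher in RvD6si than in vehicle at an unadjusted p below 0.05, against 8.69% of all genes. Usp33, a deubiquitinase that acts on Robo1, had 301, 222, 225, 247 and 202 normalized counts in vehicle and 531, 257, 343, 379.7 and 375 in RvD6si, with a log2 fold change of 0.65 (SE 0.20, adjusted p = 0.117) in edgeR and an adjusted p of 0.0289 in DESeq2. The RvD6si samples lay higher, with replicate 12 inside the vehicle range. Sdc3, a heparan sulfate proteoglycan, stood at 0.61 (SE 0.20, adjusted p = 0.125 in edgeR and 0.0357 in DESeq2), and Enah, an actin regulator that binds Robo1, at 0.57 (SE 0.20). In RvD6 against vehicle none reached that level, the nearest being Dag1 at 0.41 (SE 0.20), Arhgap39 at -0.39 (SE 0.20) and Srgap2 at -0.48 (SE 0.30). In RvD6si against RvD6 the 3 genes higher at that level, against 4.18% of all genes, were Enah at 0.49 (SE 0.20), Usp33 at 0.46 (SE 0.20) and Gpc1, a glypican, at 0.54 (SE 0.25).

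Of 23 netrin signalling genes, edgeR called 0 in each comparison, and 2 were higher in RvD6si than in vehicle at an unadjusted p below 0.05, a share close to the 8.69% over all genes. Trim67, a ubiquitin ligase that interacts with Dcc, had 506, 467, 348, 435 and 395 normalized counts in vehicle and 707, 748, 759, 622 and 548 in RvD6si. All RvD6si samples lay above all vehicle samples, with a log2 fold change of 0.65 (SE 0.16, adjusted p = 0.0631) in edgeR and an adjusted p of 0.00280 in DESeq2. Flrt3, a binding partner of Unc5 and Robo1, had 62.0, 144, 138, 121 and 51.0 in vehicle and 158, 153, 209, 236 and 184 in RvD6si. These groups did not overlap either, as was the case with higher values for 2.45% of all genes, with a log2 fold change of 0.86 (SE 0.28, adjusted p = 0.131) in edgeR and an adjusted p of 0.0345 in DESeq2. The next smallest p was that of Rgmb, a ligand of Neo1, at 0.53 (SE 0.29). DESeq2 thus called 4 genes of the 3 lists in this comparison, Usp33, Sdc3, Trim67 and Flrt3, where it called 8.13% of the genes it tested. Without RvD6 replicate 9, edgeR called 1 gene of the lists in RvD6si against vehicle.

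In RvD6 against vehicle, Pitpna (-0.46, SE 0.17) and Maged1 (-0.42, SE 0.17) were lower and Dock1, a Rac exchange factor, was higher (0.66, SE 0.30) as log2 fold changes with an unadjusted p below 0.05. These were 2 lower and 1 higher of the 23 netrin signalling genes, against 5.99% and 7.63% of all genes. In RvD6si against RvD6, Trim67 (0.49, SE 0.16) and Maged1 (0.45, SE 0.17) were higher and Rgma, a ligand of Neo1, was lower (-1.76, SE 0.70) at that level. Over all genes, 4.18% were higher and 4.64% lower in that comparison. None of the netrin signalling genes named here passed the adjusted threshold of edgeR. Nck2 and Draxin did not pass the low-count filter.

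Several of the 32 genes lie in each other's neighbourhood or share bases with other genes. Robo1 and Robo2 lie 845743 bases apart on chromosome 16 and Robo4 lies 553 bases from the scarcely counted Robo3 on the opposite strand of chromosome 9. Exon bases are shared with a gene on the opposite strand for Epha10, Epha6, Ephb1, Ephb4, Ntn5, Unc5a and Unc5c, and with a gene on the same strand for Ntng2. Reads on shared bases were not counted, so the levels of these genes are uncertain by that part.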

How the data were processed

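RNA-seq was performed on 15 mouse TG, 5 each from vehicle-, RvD6- and RvD6si-treated mice, with an adapted Smart-seq2 protocol that copies RNA from its poly(A) tail, amplifies the cDNA and keeps no strand. Alignment by the authors was with Rsubread on GRCm38 (GENCODE release M22), and featureCounts then assigned reads to the exons of each gene (version 1.5.0-p1 in the file header, Subread 1.6.5 in the submitters' processing notes). The deposited values are raw counts for 55573 genes, without normalization, and the counting set no option for multi-mapping or multi-gene reads, which were left out. Symbols and positions came from GENCODE M21 on the same build, which names 99.8% of the identifiers. All 15 columns were matched to samples by their labels.

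Counts were tested with edgeR 4.0.16 (quasi-likelihood F test, TMM, filterByExpr with a minimum count of 10 and total of 15, all samples in 1 fit, R 4.3.3). Benjamini-Hochberg adjustment covered all 16567 genes, with a threshold of 0.05. The 95% intervals use the standard error of that fit. Normalized counts used the size factors of DESeq2 1.42.0. CPM and RPKM used the TMM library sizes, RPKM also the exonic lengths in the table, and group overlap used log2 CPM with a prior count of 2. Tables and figures were made with Python 3.11.15, pandas 2.3.3 and NumPy 2.4.6. Within groups, chi-square per degree of freedom between samples was 11.3 to 49.2, far from the value of about 1 that sequencing 1 library again would give.

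The genes, the wider lists and the marker lists were chosen with earlier results of these data known. Full statistics are given for genes at an unadjusted p below 0.05 or with groups that do not overlap in a comparison, and of each wider list for the 3 genes with the smallest p. Alternatives were DESeq2 with its default settings, fits on the 2 groups compared, RLE factors, no filter, 10 counts in every sample, removal of the trend on gene length (lowess, span 0.3), each sample left out, and, chosen after the marker levels were seen, RvD6 replicates 8 and 9 and RvD6si replicate 15 left out together. The steps were tested on simulated data. Sequences came from RefSeq (GRCm38.p6), where Ntn1, Slit1 and Unc5d were not matched. Dcc also had no window, and any window on chromosome 18, where it lies, was dropped for the guidance genes. The windows over all genes kept that chromosome.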

Additional observations from a re-analysis of the deposited data

Results flagged for a closer look

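In groups of 5 samples, 10 of 96 tests flagged a sample by its gap to its nearest neighbour. The gap took more than 0.71 of the range of its group, the critical value of Dixon's test. Chance gives about 1 in 20 where values are normally distributed, which was not checked for these normalized counts. In RvD6 replicate 7 the high values were those of Robo2 (774 normalized counts, group median 501), Efna5 (149, median 71.9) and Efnb2 (115, median 45.9), and in RvD6 replicate 6 that of Epha6 (129.8, median 36.2). In RvD6si they were Ephb4 in replicate 11 (44.0, median 13.4), Ephb6 in replicate 13 (623, median 428) and Robo4 in replicate 14 (139, median 66.6). In vehicle, Unc5b was high in replicate 2 (41.8, median 12.3) and Ntn1 in replicate 1 (30.3, median 11.2), and Epha7 was low in replicate 5 (18.9, median 50.5). Neither Ntng2 nor Epha5 had such a sample in any group.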

How the results depend on the processing

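No paired analysis was possible because the replicates are numbered 1 to 15 across the groups, which share none. The call of Ntng2 in RvD6si against vehicle held under DESeq2 and all other edgeR settings with all 15 samples or the 2 groups compared, and without the 3 samples left out together; with 1 sample left out at a time its log2 fold change ran from 1.32 to 1.54 and the number of genes called from 0 to 1. For RvD6si against vehicle, the genes at an unadjusted p below 0.05 then ranged from 3 to 7, those whose groups do not overlap from 1 to 4, and the called genes of the wider lists from 0 to 1. For RvD6 against vehicle, the first 2 of these ranged from 2 to 6 and from 1 to 4, and for RvD6si against RvD6 from 2 to 4 and from 2 to 3. Of the wider lists, DESeq2 called 4 genes in RvD6si against vehicle (3 with the 2 groups alone) and 1 in RvD6 against vehicle with the 2 groups alone, and edgeR called 1 in RvD6si against vehicle with 10 counts in every sample. Among the 32 genes, DESeq2 called 1 in RvD6si against RvD6 in both fits, and 4 reached an unadjusted p of 0.05 with the 2 groups alone. Without the length trend, 2 genes did not overlap in RvD6si against vehicle and 0 in RvD6 against vehicle. Without RvD6 replicates 8 and 9 and RvD6si replicate 15, RvD6si against vehicle had 2 genes that did not overlap and 1 called gene of the wider lists, and RvD6 against vehicle had 4 genes at an unadjusted p below 0.05 and 5 that did not overlap. The cause was not tested for these changes. Shares over all genes were not taken for the fits with samples left out or without the length trend. Groups with fewer samples also part more easily for any gene, so these counts have no background beside them. For single genes under the settings that did not leave out samples 1 at a time, 850 values kept their side of the threshold or stayed within the spread between replicates, and the exceptions were 2, the DESeq2 calls of Epha5 in RvD6si against RvD6. With 1 sample left out, 1420 such values did and 5 moved, those of Efnb2 and Unc5b in both comparisons with RvD6 without RvD6 replicate 7 and that of Neo1 in RvD6si against vehicle without RvD6si replicate 12. No called value changed its direction. The 95% intervals reached a half-width of 2.24 on the log2 scale, for Ephb2 with a mean of 10.0 counts, and the parts of depth and of the spread between samples in this were not tested.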
